A study of Mus musculus with 3 samples.

Results

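The 8 Gimap genes of the mouse matrix (Gimap1, Gimap3, Gimap4, Gimap5, Gimap6, Gimap7, Gimap8 and Gimap9) were taken by symbol from 31053 genes, and all 8 were detected in each class of T cells described here. Tumour-infiltrating T cells came from C57BL/6 mice that carried subcutaneous MC38-Ova or B16-Ova tumours, a colon carcinoma and a melanoma line that both express ovalbumin. Cells were sorted on day 14 as TCRB+CD3+CD90.2+CD11b-, hashed by tumour, pooled into 1 10x Genomics capture, and tagged for PD-1 and for the lectin L-Pha, which binds branched N-glycans and is read through a biotin tag (SUGAR-seq). Of 19912 barcodes, 18429 passed the cell filter and 14992 carried 1 hashtag, 8407 from MC38-Ova and 6585 from B16-Ova. A class was given to 8797 of these cells from raw UMIs (unique molecular identifiers, 1 per captured RNA molecule).

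Classes were defined by transcripts alone. Treg cells (Foxp3 detected, no CD8 transcript) numbered 960 in MC38-Ova and 777 in B16-Ova. CD8 cells (at least 2 UMIs of Cd8a and Cd8b1, no Cd4 or Foxp3) numbered 2544 in MC38-Ova and 1792 in B16-Ova. Innate-like cells, which had Cd3e and at least 2 UMIs of the signalling adaptors Fcer1g and Tyrobp, no Cd4 or Foxp3 and at most 1 CD8 UMI, numbered 780 in MC38-Ova and 455 in B16-Ova. CD4 cells (Cd4 detected, no Foxp3 and no CD8 transcript) numbered 736 in MC38-Ova and 753 in B16-Ova, and were the class to which the others were set. The 6195 cells of 1 hashtag in none of these classes entered no comparison. Median depth per class and pool was 4107 to 7358 RNA UMIs per cell. The summed T cell markers lay at 3635 to 5537 CPM (UMIs of a gene per 1000000 RNA UMIs) in every class, and all 7 were detected in each. Each tumour is 1 pool, the number of mice in a pool is not given, and pools stand in as the only replicates, so p-values measure only the spread between these sums.

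GIMAP proteins (GTPases of immunity-associated proteins) are small GTP-binding proteins of lymphocytes, many of them anchored to intracellular membranes. They are known for keeping peripheral T cells alive and quiescent: loss of Gimap5 in rats and mice causes T cell lymphopenia, and loss of Gimap1 in mice depletes mature lymphocytes. Human GIMAP6 binds an Atg8-family protein of the autophagy machinery, Gimap3 is a mitochondrial relative of Gimap5, Gimap4 has been linked to the timing of T cell death, Gimap8 is the longest member with several GTP-binding domains, and human GIMAP7 can activate the GTPase of another member.

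The members lie together on chromosome 6 within 123.6 kb (chr6:48647234-48770851, GRCm38, GENCODE vM21), all protein-coding. Their order along the chromosome is Gimap8, Gimap9, Gimap4, Gimap6, Gimap7, Gimap1, Gimap5 and Gimap3, with Gimap6 and Gimap3 on the reverse strand. A further protein-coding model, Gm28053 (chr6:48718607-48752644), runs on the forward strand across Gimap7, Gimap1 and Gimap5. It starts 14 bases before Gimap7, and exons of it cover 3.48% of the exon bases of Gimap7, 6.44% of Gimap1 and 3.69% of Gimap5, including the first exon of Gimap7 and of Gimap1. Gm28053 has its own row in the matrix, at 5.48 to 10.7 CPM over the classes and pools. How reads in the shared exons were assigned is not given in the sources used here, so levels of these members are uncertain. The share of their reads that falls in the shared exons was not measured and may differ from the share of bases. Gimap1os, on the strand opposite to Gimap1, was not analysed here.

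**Figure D1:**
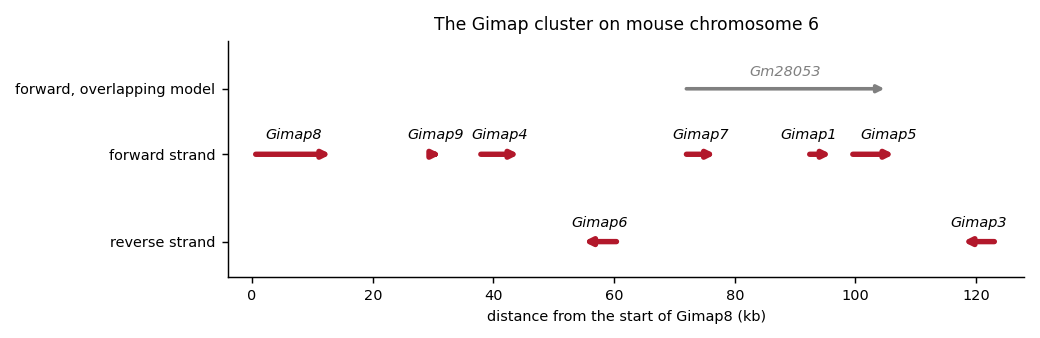
Map of the Gimap cluster, with the distance from the start of Gimap8 in kb on the x axis and the strand on the y axis. Each arrow is a gene body drawn to scale in its direction of transcription, and the grey arrow is Gm28053, which begins with Gimap7 and spans Gimap1 and Gimap5.

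The promoters of Gimap7, Gimap6 and Gimap3 are shown because Gimap7 was called in Treg cells, Gimap6 was called in 2 comparisons, and Gimap3 had the highest correlation with the rest of the family. Each is RefSeq sequence (GRCm38.p6) from 250 bases before to 50 bases after the start RefSeq annotates, 5′ to 3′ on the strand of the gene, and capitals mark matches to the motifs searched. They lie at chr6:48718371-48718670 on the forward strand (Gimap7), chr6:48708195-48708494 on the reverse strand (Gimap6) and chr6:48770802-48771101 on the reverse strand (Gimap3). RefSeq and GENCODE give the same start for Gimap7 and Gimap3, and the RefSeq start of Gimap6 lies upstream of the GENCODE one.
Gimap7: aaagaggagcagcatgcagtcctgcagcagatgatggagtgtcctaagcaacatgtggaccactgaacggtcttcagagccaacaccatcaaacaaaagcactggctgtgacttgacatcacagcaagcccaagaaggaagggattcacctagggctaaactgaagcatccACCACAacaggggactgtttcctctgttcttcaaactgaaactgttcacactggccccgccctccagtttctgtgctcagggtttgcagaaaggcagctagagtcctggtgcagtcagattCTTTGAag
Gimap6: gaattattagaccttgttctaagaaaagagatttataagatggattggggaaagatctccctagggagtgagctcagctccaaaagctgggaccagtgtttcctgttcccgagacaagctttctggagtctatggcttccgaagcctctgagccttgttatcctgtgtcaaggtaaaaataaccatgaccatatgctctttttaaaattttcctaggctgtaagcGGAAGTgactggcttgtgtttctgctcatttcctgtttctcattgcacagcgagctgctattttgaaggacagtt
Gimap3: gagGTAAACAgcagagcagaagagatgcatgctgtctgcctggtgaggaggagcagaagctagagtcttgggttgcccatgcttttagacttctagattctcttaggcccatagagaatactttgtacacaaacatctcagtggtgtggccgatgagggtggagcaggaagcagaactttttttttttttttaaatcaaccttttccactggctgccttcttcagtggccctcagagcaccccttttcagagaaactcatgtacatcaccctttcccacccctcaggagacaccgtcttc
The motifs, searched on both strands, were a forkhead core (GTAAACA), a Runx core (TGTGGT), a Tcf/Lef core (CTTTGA) and an Ets core (GGAAGT). In 9 promoters of the 8 members (Gimap8 has a pair), the Runx core was found in Gimap7, Gimap4 and Gimap1, and in 16.8% of all 32851 mouse promoters of this length. Tcf/Lef letters stood in Gimap7 and Gimap4, against 16% of all promoters. The Ets letters occurred in Gimap9, Gimap6, Gimap1 and Gimap5 (23.8% of all), and the forkhead letters in Gimap3 alone among the members (3.65% of all). No match overlapped that of another motif. In Gimap7 the Runx match begins 79 bases before the RefSeq start and is read on the opposite strand, and in Gimap6 the Ets match begins 25 bases before it.

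The family was abundant in every T cell class. Summed over the 8 members, the level was 2736 CPM in MC38-Ova and 2763 CPM in B16-Ova Treg cells, 2092 and 1958 CPM in the CD8 cells of these pools, 2796 and 2970 CPM in innate-like cells, and 2120 and 2652 CPM in CD4 cells. CD8 cells thus gave the lowest values in both pools, and innate-like cells the highest. In cells thinned to 2000 RNA UMIs, CD8 cells stayed lowest (2228 CPM in MC38-Ova and 2312 CPM in B16-Ova). The top rank then depended on the pool. Treg cells had 3089 CPM and innate-like cells 3019 CPM in MC38-Ova, and 3097 and 3237 CPM in B16-Ova. UMIs mark 1 end of a molecule, and how fully each gene was captured was not measured, so they order the classes for 1 gene and not the genes. Of the family's UMIs, Gimap4 made up 21.7% to 25.5%, Gimap3 18.5% to 22.8%, Gimap6 15.8% to 23.0%, Gimap7 6.32% to 13.3% and Gimap8 3.16% to 4.06% over the classes and pools.

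Nearly every T cell held at least 1 Gimap UMI, from 97.3% of MC38-Ova CD4 cells to 455 of 455 B16-Ova innate-like cells. After each cell was thinned to 2000 RNA UMIs, which left out 6 to 121 cells a group, the shares were 95.3% to 99.6%. As a cell type expected to lack the family, 17 cells with melanoma transcripts and no Cd3e, at a median of 55167 RNA UMIs, had a Gimap UMI in 58.8% (10 cells) and in 21.4% of the 14 cells thinned to 2000 UMIs. Their summed level was 39.4 CPM (31 UMIs, 95% counting interval 26.7 to 55.9), more than an order of magnitude below every T cell class. Another 17 cells with macrophage transcripts and no Cd3e had 561 CPM (47 UMIs, interval 412 to 746), with Gimap8 at 0 UMIs, which allows up to 44.1 CPM by the exact interval. Intervals cover counting error only.

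Treg cells differed from CD4 cells in 1 member, Gimap7. Gimap7 stood at 364 CPM in MC38-Ova and 357 CPM in B16-Ova Treg cells, against 134 and 205 CPM in the CD4 cells of these pools. Both Treg values were above both CD4 values, and above those of CD8 and innate-like cells as well. In the fit over all 8 sums with pool as a term, its log2 fold change was 1.10 ± 0.18 (SE, n = 2 sums a class; edgeR quasi-likelihood test with Benjamini-Hochberg adjustment, adjusted p = 0.0196). With 1 pool at a time it was 1.44 in MC38-Ova and 0.79 in B16-Ova. With hashtags at least 10 times the other, which leaves 366 and 400 Treg and 176 and 223 CD4 cells, it was 0.97 and not called. In cells thinned to equal depth, Gimap7 was detected in 49.65% of MC38-Ova and 45.6% of B16-Ova Treg cells and in 23.8% and 31.6% of CD4 cells, against 14.3% of the melanoma-marker cells.

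The other 7 members differed little between Treg and CD4 cells, with log2 fold changes of -0.07 ± 0.13 (Gimap6) to 0.24 ± 0.10 (Gimap4), none called. The median over the 8 members was 0.12, against 0.00 over the 11188 genes tested, of which 374 (3.34%) were called. Gm28053, which shares its first exon with Gimap7, had 10.7 CPM (74 UMIs) in MC38-Ova and 10.6 CPM (61 UMIs) in B16-Ova Treg cells, against 5.48 (23 UMIs) and 7.44 CPM (27 UMIs) in CD4 cells. It was not among the neighbours called. Macrophage markers summed to 55.2 CPM in MC38-Ova and 233 CPM in B16-Ova Treg cells, against 100 and 26.7 CPM in CD4 cells, melanoma markers to 179 and 31.5 CPM against 31.7 and 322 CPM, and stromal markers to 231 and 2.96 CPM against 65.0 and 3.03 CPM. Gimap7 itself was at 11.9 CPM (1 UMI) in the macrophage-marker cells and 5.08 CPM (4 UMIs) in the melanoma-marker cells, and the part of these cells in the result was not tested. Among 15 genes of T cell quiescence and homing, 1 was higher in Treg cells and 3 were lower, the transcription factors Tcf7 (-1.58 ± 0.20), Bach2 (-1.21 ± 0.24) and Lef1 (-0.65 ± 0.13). Bcl2, the survival factor, was lower (-1.0 ± 0.15) as the only one of 12 Bcl2-family genes to pass. Of 10 T lineage factors, 1 was higher, Myb (1.36 ± 0.24), and 1 was lower, Ikzf1 (-0.58 ± 0.11), which was named after its value was seen.

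No member was called between CD8 and CD4 cells. The 8 log2 fold changes ran from -0.35 ± 0.11 (Gimap8) to 0.37 ± 0.18 (Gimap7), with a median of -0.18 against -0.01 over all genes, 770 (6.88%) of which were called. Gimap8 was the 1 member at an unadjusted p under 0.05 in edgeR, as were 2748 of all 11188 genes, and DESeq2 called 0 members as well. The level of Gimap8 was 67.5 CPM in MC38-Ova and 66.1 CPM in B16-Ova CD8 cells, against 86.0 and 99.0 CPM in CD4 cells. The pools differed in this comparison: Gimap9 had a log2 fold change of 0.04 in MC38-Ova alone and -0.67 in B16-Ova alone, a difference that was not tested. Of the list genes, the quiescence-associated Dapl1 was higher (2.31 ± 0.52), Il7r, the interleukin-7 receptor, was lower (-1.08 ± 0.20), and of 10 T lineage factors 1 was higher, Myb (1.00 ± 0.24), and 3 were lower, among them Runx1 (-1.34 ± 0.16). The neighbours Tmem176a (-2.12 ± 0.28) and Tmem176b (-2.08 ± 0.21), which overlap each other on opposite strands beyond Gimap3, were lower as well.

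Innate-like cells had more Gimap5, Gimap6 and Gimap4 than CD4 cells. Gimap5 stood at 312.5 CPM in MC38-Ova and 302 CPM in B16-Ova innate-like cells, against 198 and 216 CPM in CD4 cells (log2 fold change 0.70 ± 0.10, edgeR adjusted p = 0.00617). Gimap6 stood at 642 and 653 CPM in innate-like cells, against 422 and 535 CPM in CD4 cells (0.56 ± 0.13, edgeR adjusted p = 0.0341). For both genes each innate-like value was above all 6 values of the other classes. Gimap4, at 644 and 696 CPM against 476 and 618 CPM in CD4 cells, differed by 0.42 ± 0.10 (edgeR adjusted p = 0.0428). Its innate-like values overlapped those of Treg cells (595 and 704 CPM).

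Of the other 5 members, Gimap1 was the only one with a negative value in innate-like cells (-0.26 ± 0.10), and Gimap3, Gimap7, Gimap8 and Gimap9 had values of 0.23 to 0.44, none called. Gimap1 had 194 and 184 CPM in innate-like cells of MC38-Ova and B16-Ova, against 249 and 244 CPM in CD4 cells. The median of the 8 members was 0.41, against 0.00 over all genes, 1060 (9.47%) of which were called. None of the 3 was called with hashtags at least 10 times the other (167 and 106 innate-like cells), and Gimap5 alone in stricter classes. In the same comparison Bcl2 (1.67 ± 0.14) was higher, as was 1 more Bcl2-family gene of 12, Bcl2l11, which encodes the death-promoting Bim (0.89 ± 0.14). Another 4 Bcl2-family genes were lower, among them Pmaip1 (-1.77 ± 0.26) and the closely similar Bcl2a1d (-2.19 ± 0.31) and Bcl2a1b (-1.48 ± 0.26), whose reads may be split between copies. Of the 15 quiescence and homing genes 4 were higher and 1 was lower. Of 10 T lineage factors 2 were higher, among them Myb (1.82 ± 0.25), and 4 were lower. Of 12 Atg8 and autophagy genes, 1 passed: Gabarapl2, the Atg8-family protein known to bind human GIMAP6, was lower (-0.45 ± 0.11). Bcl2l11 and Gabarapl2 were named after their values were seen. Macrophage markers summed to 168 CPM in MC38-Ova and 22.8 CPM in B16-Ova innate-like cells, against 100 and 26.7 CPM in CD4 cells, and melanoma markers to 33.1 and 436 CPM against 31.7 and 322 CPM. Their part in the result was not tested.

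**Figure D2:**
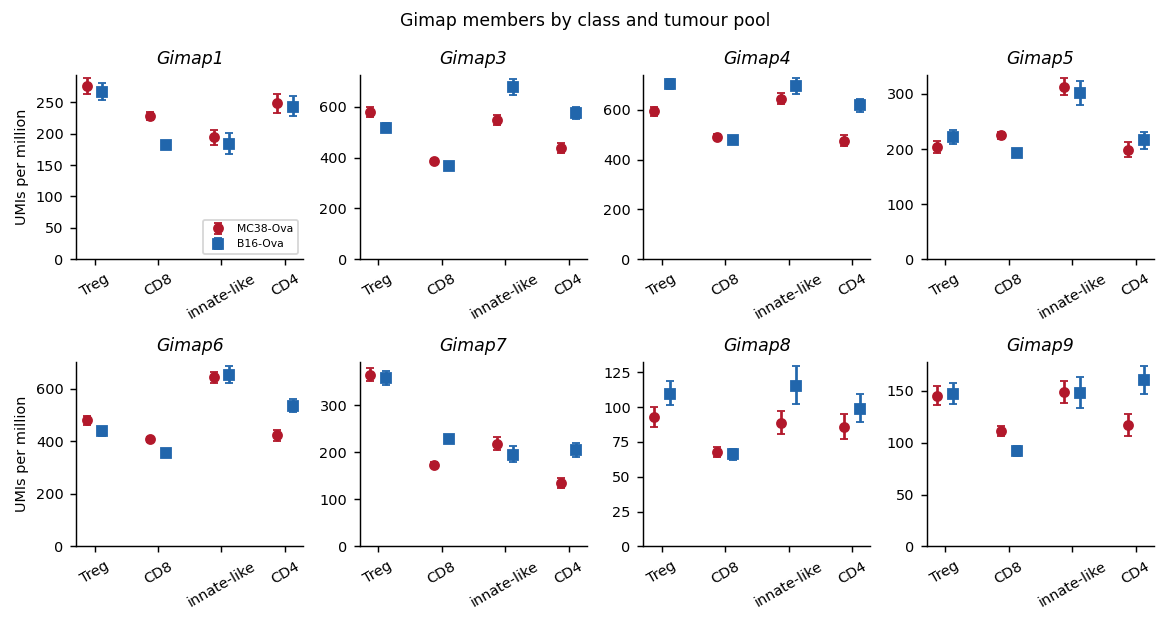
Level of each member in CPM (y axis) in the 4 classes (x axis), with MC38-Ova as circles and B16-Ova as squares, and 95% counting intervals as bars. Gimap7 is highest in Treg cells in both pools (364 and 357 CPM), and Gimap5 and Gimap6 in innate-like cells.

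The order of the classes differed by member. For Gimap3, Gimap4, Gimap8 and Gimap9 it was innate-like, Treg, CD4 and CD8 by the mean of both pools. In that order innate-like and Treg cells overlapped in all of these but Gimap9, where they lay at 148 to 149 and 145 to 147 CPM with overlapping counting intervals, and Treg and CD4 cells overlapped in all 4. For Gimap6 it was innate-like, CD4, Treg and CD8, with CD4 and Treg cells overlapping, and for Gimap5 innate-like cells stood above the other 3, which overlapped. CD8 cells lay below all other classes in Gimap3, Gimap6, Gimap8 and Gimap9, and overlapped CD4 cells in Gimap4. For this and the other statements of overlap between classes, the share over all genes is not given here. Gimap1 ran in another order, with Treg cells (276 and 267 CPM) above CD4 cells and with CD8 and innate-like cells overlapping at the low end. Over the 8 sums Gimap7 had the widest span of the members, 2.72-fold between lowest and highest, and the others 1.48-fold (Gimap4) to 1.85-fold (Gimap3 and Gimap6).

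Between tumours, the family's level was nearly equal in 3 classes and lower in MC38-Ova CD4 cells. The ratio of MC38-Ova to B16-Ova of the 8 members summed was 0.990 in Treg cells (95% counting interval 0.969 to 1.01), 1.07 in CD8 cells (1.05 to 1.08; 0.964 in cells thinned to 2000 UMIs), 0.941 in innate-like cells (0.916 to 0.968) and 0.799 in CD4 cells (0.777 to 0.823). With 1 pool a tumour there is no test of tumour, and tumour and pool cannot be told apart. Gimap7 gave the lowest ratio of any member in any class, 0.654 in CD4 cells (interval 0.585 to 0.731), the only member value past 1.5-fold in either direction. It stayed lowest there in stricter classes (0.623) and when scaled by T cell receptor and CD3 UMIs (0.640). Gimap9 was lower than Gimap7 in CD4 cells thinned to 2000 UMIs (0.6715 against 0.6905). The same held with hashtags at least 10 times the other (0.549 against 0.604). In CD8 cells Gimap7 was also below 1 (0.762, interval 0.728 to 0.797) while the other 7 together were above (1.11, interval 1.09 to 1.125). In cells thinned to 2000 UMIs the other 7 were not above 1 (0.993, interval 0.963 to 1.02), and Gimap7 was at 0.713 (0.647 to 0.785). Ratios past 1.5-fold were seen in 8.51% of Treg, 11.1% of CD8, 5.87% of innate-like and 6.29% of CD4 genes measured.

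PD-1 is a receptor of activated and exhausted T cells. The highest quartile of its tag in each class and pool was set against the lowest, with median tag counts of 22 to 36 UMIs in the high and 9 to 12 UMIs in the low quartiles. Transcripts of Pdcd1, which encodes PD-1, were higher in the PD-1-high cells of Treg (1.56 ± 0.16), CD8 (2.03 ± 0.14) and CD4 cells (2.10 ± 0.15) and were not called in innate-like cells (0.75 ± 0.27, edgeR adjusted p = 1.0). High quartiles also held more RNA per cell, with medians of 4332 to 12447 RNA UMIs, against 3742 to 6005 in the low ones.

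In CD8 cells Gimap6 fell at high PD-1. From the lowest to the highest quartile, Gimap6 stood at 494, 423, 381 and 351 CPM in MC38-Ova and at 515, 431, 339 and 242 CPM in B16-Ova. Both pools declined at every step. High against low, the log2 fold change was -0.87 ± 0.17 (edgeR adjusted p = 0.0185), with -0.53 in MC38-Ova and -1.21 in B16-Ova alone. When quartiles were cut within deciles of RNA UMIs it was -0.43 and still called, and with terciles (-0.78) or with the tag divided by the hashtag (-0.81) it was not.

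All 8 members had negative values in this comparison, down to -0.72 ± 0.18 for Gimap9 (edgeR adjusted p = 0.0546) and -0.65 ± 0.16 for Gimap3 (edgeR adjusted p = 0.0517), and up to -0.10 ± 0.14 for Gimap1 and -0.12 ± 0.13 for Gimap7. Gimap1 and Gimap7 turned sign under 2 of the 9 alternatives each, and the other 6 under none. From the lowest to the highest quartile, Gimap9 stood at 125, 117, 105 and 101 CPM in MC38-Ova and at 124, 120, 91.5 and 62.7 CPM in B16-Ova. The median of the members was -0.47, against -0.01 over all genes, 566 (5.51%) of which were called. Without a filter on low counts 4 members were called, and the share of all genes called in that fit is not given here. Total RNA moved with this result: in quartiles of RNA UMIs, highest against lowest, Gimap6 had a ratio of 0.6905 in MC38-Ova and 0.3495 in B16-Ova CD8 cells, a split added after the data were seen. Macrophage markers summed to 87.05 and 61.5 CPM in the PD-1-high CD8 cells of MC38-Ova and B16-Ova, against 15.8 and 11.6 CPM in the PD-1-low ones, and their part in the result was not tested.

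Genes of quiescence and homing fell in the same comparison, 11 of 15 with none higher (list median -1.24). Among them were the egress receptor S1pr1 (-1.77 ± 0.28), Tcf7 (-1.59 ± 0.18), Satb1 (-1.55 ± 0.34) and Lef1 (-1.51 ± 0.20). Bcl2 fell by 1.49 on the log2 scale, and of 12 Bcl2-family genes 2 were lower and 2 higher. No Atg8 or autophagy gene of 12 passed.

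No member was called by PD-1 in the other classes. In Treg cells the 8 values lay between -0.14 and 0.06, with 70 (0.79%) of 8857 genes called. In innate-like cells they lay between -0.25 and 0.11, with 25 (0.33%) of 7579 genes called. In CD4 cells they lay between -0.35 and -0.03, with 6 (0.0774%) of 7748 genes called. At an unadjusted p under 0.05 edgeR gave 0 members in Treg, 0 in innate-like and 1 in CD4 cells (Gimap6, -0.30 ± 0.10), and DESeq2 called 0 in each. Of all genes, 388 passed that unadjusted threshold in Treg, 246 in innate-like and 522 in CD4 cells. The difference between CD8 and the other classes was not tested. In the Treg fit the spread was wholly borrowed across genes and the spread of a single gene between its pools carried no weight in it.

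**Figure D3:**
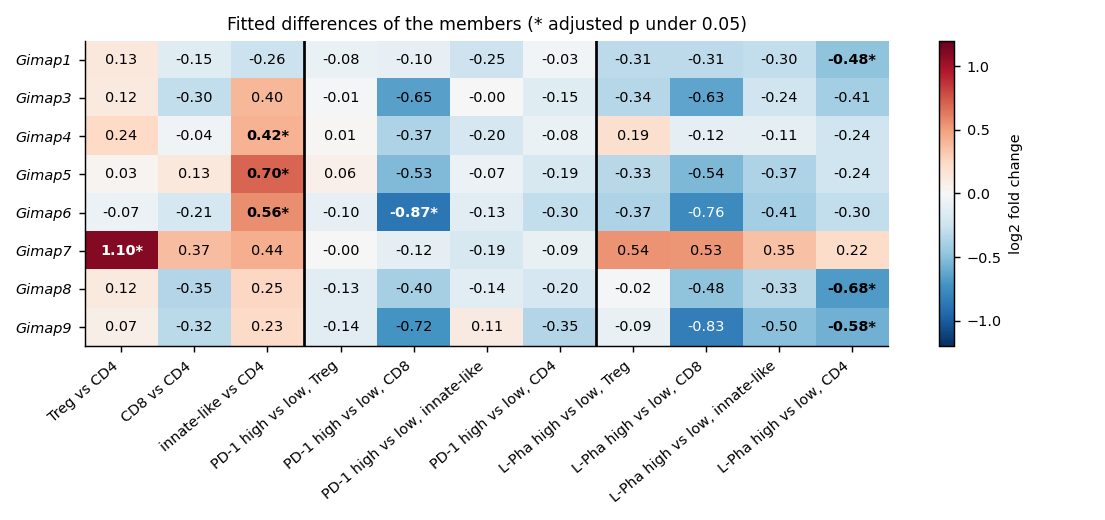
Log2 fold change of each member (rows) in the 11 comparisons (columns), with red for higher and blue for lower in the group named first, and an asterisk where edgeR's adjusted p was under 0.05. Gimap7 is positive in all 4 L-Pha comparisons, and most other members are negative there.

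By L-Pha binding, Gimap7 had values opposite in sign to most of the family. The highest quartile of the L-Pha tag, with medians of 476.5 to 1333.5 UMIs, was set against the lowest, with medians of 146 to 238 UMIs. High quartiles had medians of 5586 to 13931 RNA UMIs per cell and low ones 3295.5 to 5383, so binding and RNA content were high together. Mgat5, which encodes the enzyme that makes the branch L-Pha binds, was not called in any class.

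Gimap7 had its lowest level in the lowest L-Pha quartile of CD8, Treg and innate-like cells. From the lowest to the highest L-Pha quartile it stood at 114, 136, 176 and 218.5 CPM in MC38-Ova CD8 cells, and at 170, 229, 262.5 and 223.5 CPM in B16-Ova CD8 cells. In Treg cells it stood at 293, 396, 386 and 360 CPM in MC38-Ova and at 224, 314, 405 and 396 CPM in B16-Ova. The highest value lay in the highest quartile in 1 of these 4 series, MC38-Ova CD8 cells. In innate-like cells the 4 quartiles had 170, 234, 240 and 217 CPM in MC38-Ova and 153, 203, 210 and 205 CPM in B16-Ova. In CD4 cells they had 126, 120, 113 and 156 CPM in MC38-Ova and 202, 202, 190 and 218.5 CPM in B16-Ova.

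None of these differences passed the adjusted test. The log2 fold changes of Gimap7 were 0.54 ± 0.14 in Treg (edgeR adjusted p = 0.119), 0.53 ± 0.23 in CD8 (0.267), 0.35 ± 0.17 in innate-like (0.352) and 0.22 ± 0.18 in CD4 cells (0.551). In Treg cells Gimap7 was called without a filter on low counts (0.57) and in cells thinned to 2000 UMIs (0.70). Its value was negative in innate-like cells with hashtags at least 10 times the other (-0.09) and in CD4 cells with the tag divided by the hashtag (-0.07).

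The other 7 members together were lower at high L-Pha in 7 of 8 groups. Their ratio of highest to lowest quartile was 0.842 in MC38-Ova and 0.941 in B16-Ova Treg cells, 1.01 and 0.604 in CD8 cells, 0.839 and 0.837 in innate-like cells, and 0.779 and 0.753 in CD4 cells. Gimap7 had ratios of 1.23 and 1.76, 1.92 and 1.31, 1.28 and 1.34, and 1.23 and 1.08 in the same groups. The Gimap7 ratio exceeded that of the other 7 in 8 of 8 groups, by 1.44-fold to 2.17-fold. This contrast was singled out after its values were seen and is given with no test. With quartiles cut within deciles of RNA UMIs the Gimap7 ratio was again above that of the other 7 in 8 of 8 groups. It was higher by 1.075-fold to 1.845-fold. The other 7 were then lower in 5 of 8 groups and higher in 3, with ratios of 0.913 to 1.18. In quartiles of RNA UMIs alone the other 7 were lower in 8 of 8 groups, with ratios of 0.450 to 0.8195. The Gimap7 ratio was above theirs in 7 of 8 groups, at 0.940 to 1.675 times that of the other 7. By PD-1 it was above in 5 of 8.

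Markers of other cells moved with L-Pha in these classes. Macrophage markers summed to 67.7 CPM in MC38-Ova and 503 CPM in B16-Ova L-Pha-high Treg cells, against 20.4 and 31.5 CPM in L-Pha-low ones. In CD8 cells they were at 81.9 and 55.0 CPM against 16.8 and 18.3 CPM, and in innate-like cells at 412 and 42.9 CPM against 16.5 and 7.37 CPM. Adgre1, a macrophage marker, was at 0 in the L-Pha-low Treg cells of both pools. Melanoma markers were at 34.9 CPM in MC38-Ova and 536 CPM in B16-Ova L-Pha-high CD8 cells, against 36.5 and 29.7 CPM in L-Pha-low ones, and at 21.5 and 1221 CPM in L-Pha-high innate-like cells, against 37.3 and 35.0 CPM. Their part in the Gimap7 values was not tested.

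**Figure D4:**
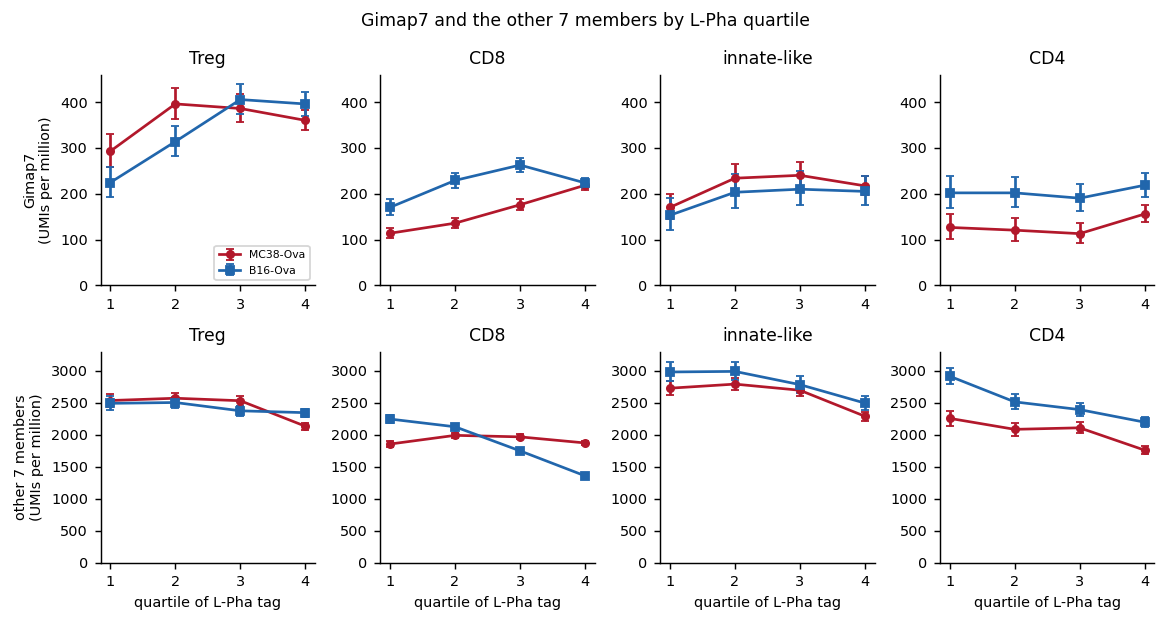
Level in CPM (y axis) of Gimap7 (top row) and of the other 7 members summed (bottom row) by quartile of the L-Pha tag (x axis) in the 4 classes, with MC38-Ova as circles, B16-Ova as squares and 95% counting intervals as bars. Gimap7 is lowest in the lowest quartile of Treg, CD8 and innate-like cells, while the other 7 decline in CD4 cells of both pools and in B16-Ova CD8 cells.

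**Figure D5:**
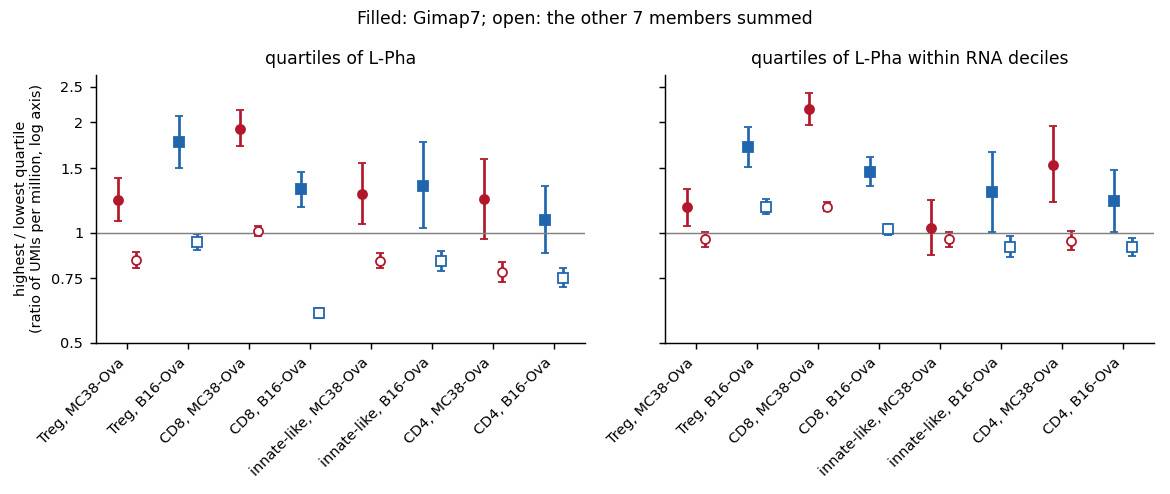
Ratio of the highest to the lowest L-Pha quartile (y axis, log scale) in each class and pool (x axis), for Gimap7 (filled) and the other 7 members summed (open), with 95% counting intervals. Quartiles were cut on the tag alone (left) or within deciles of RNA UMIs (right), and Gimap7 lies above the other 7 in 8 of 8 groups in both panels.

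In CD4 cells, 3 members were lower in L-Pha-high cells. Gimap8 had 67.9 CPM in MC38-Ova and 85.8 CPM in B16-Ova L-Pha-high cells, against 120 and 129 CPM in L-Pha-low cells (-0.68 ± 0.20, edgeR adjusted p = 0.0117). Gimap9 had 100.1 and 141 CPM in L-Pha-high cells, against 137 and 233 CPM in L-Pha-low cells (-0.58 ± 0.18, edgeR adjusted p = 0.0233). Gimap1 had 198 and 219 CPM in L-Pha-high cells, against 290 and 300.5 CPM in L-Pha-low cells (-0.48 ± 0.17, edgeR adjusted p = 0.0493). Groups did not overlap for Gimap8 and Gimap1, and overlapped for Gimap9. The share of all genes whose groups do not overlap is not given here. Of the 7565 genes tested 619 (8.18%) were called, and the spread was wholly borrowed across genes. Of the 9 alternatives, terciles kept 3 called members, no filter on low counts left 1 (Gimap8), and the other 7 alternatives left none. Within RNA deciles the values were -0.09 for Gimap8, -0.31 for Gimap9 and -0.27 for Gimap1.

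The make-up of CD4 cells moved with L-Pha as well. Innate-like markers summed to 633 CPM in MC38-Ova and 525 CPM in B16-Ova L-Pha-high CD4 cells, against 75.8 and 97.2 CPM in L-Pha-low ones. Macrophage markers summed to 215 and 27.0 CPM against 28.2 and 23.9 CPM, melanoma markers to 30.4 and 865 CPM against 32.7 and 28.4 CPM, and stromal markers to 153 and 3.18 CPM against 8.92 and 8.97 CPM. Their part in the result was not tested. In CD4 cells 8 of the 15 quiescence and homing genes were lower at high L-Pha, among them S1pr1 (-1.15 ± 0.20), and 2 were higher, among them Ccr7 (1.52 ± 0.22), the lymph node homing receptor. Of 10 T lineage factors 4 were lower, among them Runx1 (-0.83 ± 0.20), and the neighbours Tmem176b (1.31 ± 0.27) and Tmem176a (1.00 ± 0.33) were higher.

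In the other classes no member was called by L-Pha. The median of the members was -0.20 in Treg cells (178 genes called, 2.06%), -0.51 in CD8 cells (82 called, 0.798%) and -0.31 in innate-like cells (209 called, 2.93%), against -0.01 over all genes in each. At an unadjusted p under 0.05 edgeR gave 4 members in Treg, 3 in CD8 and 4 in innate-like cells, and DESeq2 called 0 in each. Of all genes, 1661 of 8652 in Treg, 1844 of 10277 in CD8 and 984 of 7128 in innate-like cells passed that unadjusted threshold. Gimap9 had the most negative values in CD8 (-0.83 ± 0.27) and innate-like cells (-0.50 ± 0.18), and Gimap6 in Treg cells (-0.37 ± 0.10). In CD8 cells the pools differed, with Gimap6 at -0.16 in MC38-Ova and -1.37 in B16-Ova alone, a difference that was not tested. Quiescence and homing genes were lower in all 3 classes, 7 of 14 tested in Treg cells with Tcf7 (-1.71 ± 0.30), Ccr7 (-1.55 ± 0.15) and Klf2 (-1.24 ± 0.16), 2 of 15 in CD8 cells (S1pr1, -2.18 ± 0.34, and Dapl1, -1.72 ± 0.29), and 7 of 14 in innate-like cells with S1pr1 (-1.27 ± 0.27), Ccr7 (-0.96 ± 0.26) and Il7r (-0.94 ± 0.17). None was higher. Bcl2 was lower in L-Pha-high Treg cells (-1.38 ± 0.20).

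Across the 32 sums of pool, class and L-Pha quartile, 6 members varied together. The correlation of each member with the sum of the other 7, on log2(CPM + 1), was 0.899 for Gimap3, 0.860 for Gimap9, 0.832 for Gimap8, 0.805 for Gimap4, 0.744 for Gimap6 and 0.594 for Gimap5. For Gimap7 it was 0.202 and for Gimap1 0.111. Gimap7 and Gimap1 are the members whose first exon overlaps Gm28053, and Gimap5 shares exons with it too. The part of the shared exons in these correlations was not tested. The sums are cut by the same L-Pha quartiles in which Gimap7 was singled out, so its low correlation is not independent of that contrast. Genes with a mean of at least 20 CPM, 5382 without the members, had correlations of -0.512 to 0.496 with the summed family from the 5th to the 95th percentile. These sums share 1 capture and 2 pools and differ in depth, so the values are descriptions and have no p. Gimap3 and Gimap6, the most alike pair, had r = 0.872, although Gimap3 lies at the end of the cluster, with Gimap7, Gimap1 and Gimap5 between them.

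The genes whose pattern was most like the summed family over these sums were Cbl, a ubiquitin ligase that dampens receptor signalling (r = 0.872), Amz2, a metalloprotease (0.805), Cirbp, a cold-inducible RNA-binding protein (0.789), Zfp36l1, an mRNA-decay factor (0.786), and Slc50a1, a sugar transporter (0.781). Gimap7 was most like Mdh1, the cytosolic malate dehydrogenase (r = 0.807), Coro2a, an actin-binding coronin (0.805), Pglyrp1, a peptidoglycan-recognition protein (0.782), Wls, a carrier of Wnt proteins (0.782), and Hbs1l, a ribosome-rescue factor (0.780). These 5 had correlations of -0.02 to 0.33 with the summed family.

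Of 20 further genes annotated within 100 kb, 16 were analysed. Tmem176b, a membrane protein gene, ranged over 12.25 to 62.0 CPM, with its highest values in CD4 cells (50.5 CPM in MC38-Ova and 62.0 CPM in B16-Ova). Gimap7 was lowest in CD4 cells by the mean of both pools but not in B16-Ova. There it stood at 195 CPM in innate-like and 205 CPM in CD4 cells, with overlapping counting intervals.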

How the data were processed

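The values are raw UMI counts as deposited by the authors, per gene, hashtag and antibody tag. Cell Ranger 3.1.0, R 3.6.1, Seurat 3.1.0 and mm10 are named in the submitters' processing notes, and version 3.0.2 of the writing software per the file headers. Hashtag 1 marks B16-Ova and hashtag 2 MC38-Ova, per the series' design text. The annotation used for counting is not given in the sources used here. The labels' protocols name the 10x 5′ kit up to cDNA and 3′ v3 steps after it. Gene coordinates were matched by gene ID to GENCODE vM21.

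Cells had at least 500 genes, at most 10% mitochondrial UMIs, and a larger hashtag of at least 150 UMIs and 3 times the other. Doublets within a pool were kept, except in the alternative that leaves out the highest 10% of Scrublet scores (scanpy 1.11.5). Raw UMIs were summed per pool and class (8 sums), or per pool and tag quartile within a class (4 sums, ties kept together), and tested with edgeR 4.0.16 in R 4.3.3 (TMM scaling, filterByExpr, quasi-likelihood F-test with pool as a term, Benjamini-Hochberg over all genes, 0.05). The tag fits leave 1 residual degree of freedom and the class fit 3. SE is the fold change over the root of F. Levels are CPM of raw sums. Depth was 2592067 to 20937848 RNA UMIs a class and pool. MC38-Ova over B16-Ova is a ratio of CPM whose 95% interval conditions on the UMIs of both pools. Its share past 1.5-fold is over genes with at least 100 UMIs. The calculations were tested on simulated data.

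Alternatives were DESeq2 1.42.0, no filter, a hashtag rule of 10 times, Scrublet, thinning to 2000 UMIs, stricter classes, each pool alone, and for tags also terciles, quartiles within RNA deciles and the tag per hashtag UMI. Members and gene lists were chosen with earlier results of these data known. The text names all members, at most 6 genes a comparison of the lists (quiescence and homing, Bcl2 family, Atg8 and autophagy, T lineage factors, neighbours) that passed the test, by size of change, a few more that are marked as named after their values were seen, and the 5 genes most like the family and, chosen later, Gimap7. The T cell receptor library and the Tim-3 tag were not analysed here. 1 gene of the lists enters their counts but is not reported here.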

Additional observations from a re-analysis of the deposited data

Results flagged for a closer look

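In several classes the MC38-Ova and B16-Ova pools moved to opposite sides of 1 in the ratio of the highest to the lowest tag quartile, each with a counting interval that leaves out 1; with 1 sum per pool and quartile, the difference between the pools was not tested.

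By L-Pha in CD8 cells, the 8 members summed had a ratio of 1.06 in MC38-Ova and 0.654 in B16-Ova, and Gimap4 had 1.24 and 0.827. By PD-1 in Treg cells, the 8 members summed had 1.08 in MC38-Ova and 0.894 in B16-Ova, the 7 without Gimap7 had 1.09 and 0.8795, Gimap5 had 1.28 and 0.853, and Gimap6 had 1.15 and 0.7625. By PD-1 in innate-like cells the sides were exchanged, with the 8 members summed at 0.809 in MC38-Ova and 1.08 in B16-Ova, the 7 without Gimap7 at 0.813 and 1.08, and Gimap5 at 0.762 and 1.23.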

How the results depend on the processing

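Each count of called members was recomputed under 6 alternatives in the class comparisons and 9 in the tag comparisons. Shares of all genes called under these alternatives are not given here. The count stayed at 0 in CD8 against CD4 cells and in the PD-1 comparisons of Treg, innate-like and CD4 cells. With hashtags at least 10 times the other, which keeps fewer cells, 0 members were called in Treg and 0 in innate-like against CD4 cells, and stricter classes gave 1 in innate-like cells. For PD-1 in CD8 cells, no filter gave 4, thinning 2, stricter classes 2, terciles 0 and the tag per hashtag UMI 0, against 1. For L-Pha in CD4 cells, no filter gave 1, and DESeq2, RNA deciles, the tag per hashtag UMI, hashtags at 10 times, Scrublet, thinning and stricter classes gave 0, against 3. Where L-Pha called 0, no filter gave 1 and stricter classes 2 in CD8 cells, no filter 1, the tag per hashtag UMI 2, thinning 1 and stricter classes 1 in Treg cells, and terciles 1 in innate-like cells. The cause was not tested. Without a filter the median of all genes shifted by up to 0.16, and by at most 0.02 otherwise.

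The MC38-Ova over B16-Ova ratio of the 8 members in CD8 cells turned below 1 when cells were thinned (0.964), and was 1.02 scaled by receptor and CD3 UMIs and 1.10 with hashtags at 10 times. In Treg cells it was 1.11 with that scaling and 1.04 in stricter classes. In innate-like cells it was 0.904 in stricter classes and 0.856 with hashtags at 10 times, and in CD4 cells 0.860 thinned, 0.7755 in stricter classes and 0.7485 with hashtags at 10 times. Gimap7 in innate-like cells turned to 0.962 with hashtags at 10 times. Gimap7 by L-Pha turned to -0.09 in innate-like cells with hashtags at 10 times and to -0.07 in CD4 cells with the tag per hashtag UMI. Every fit had pool as a block, so classes and quartiles were compared within their pool. With each pool alone, every called member kept its sign, with values from -1.21 to 1.44. Some uncalled members took opposite signs in the pools, such as Gimap3 between Treg and CD4 cells (0.40 in MC38-Ova and -0.17 in B16-Ova). Depth limits Gimap8 most, with 299 UMIs in B16-Ova innate-like cells.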

Other observations

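Cells in none of the 4 classes, without those called by melanoma or macrophage markers, had a summed Gimap level of 2268 CPM in MC38-Ova (3375 cells) and 2316 CPM in B16-Ova (2794 cells), within the range of the classes. Gimap7 was detected in 34.05% of the thinned MC38-Ova cells among them and in 36.8% of the B16-Ova cells.

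Beside the cluster, Rarres2, which encodes the chemoattractant chemerin, had 33.3 CPM (169 UMIs) in MC38-Ova and 1.16 CPM (3 UMIs) in B16-Ova innate-like cells. Stromal markers summed to 125 CPM and 1.54 CPM in these cells. This neighbour was singled out after its values were seen.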
